A study of Mus musculus with 10 samples.

Results

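The S100a genes encode small calcium-binding proteins that pair into dimers and carry EF-hand calcium sites. The 9 genes described here are S100a1, S100a3, S100a4, S100a6, S100a8, S100a9, S100a10, S100a11 and S100a13. They were taken by symbol from a read count table of 24015 mouse genes, with earlier results of these data known. All 9 passed the filter on low counts, among 12971 genes that did. S100a3 passed only through the groups in which it was high, and its calls are left out of the counts of members below.

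RNA was sequenced from MAF9 cells, bone marrow cells of C57BL/6 mice transduced with the leukemia fusion gene MLL-AF9 and grown in serum with 10 ng/ml interleukin-3. The fusion gene and the interleukin-3 were common to all 5 groups, each of which had 2 libraries from cells kept for 4 days with DMSO or with 1 inhibitor at its IC50. MM-401 blocks the binding of WDR5 to MLL1, EPZ5676 inhibits DOT1L, a methyltransferase for histones, MI-2-2 keeps MENIN from binding MLL proteins, and iBET inhibits BET bromodomain proteins. The labels name EPZ5676 as EPZ and MI-2-2 as MI or MI-2, and no source used here gives the doses themselves. The 10 libraries, described by the study as biological duplicates, held between 20394762 and 29473127 counted reads, so that 1 read was worth between 0.0339 and 0.0490 counts per 1000000 reads (CPM).

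S100A8 and S100A9 form a heterodimer, calprotectin, that fills much of the cytosol of neutrophils. Released from the cell it binds zinc and manganese and acts as an alarmin through TLR4 and the receptor RAGE, which is encoded by Ager. The other S100a proteins mostly work inside the cell. S100A6 (calcyclin) binds CACYBP, S100A4 binds the heavy chain of non-muscle myosin, encoded by Myh9, S100A10 holds annexin A2 at membranes and has lost the ability to bind calcium, and S100A11 binds annexin A1. In the bone marrow S100a8 and S100a9 are switched on as myeloid progenitors become granulocytes. Fewer cells of a type and less RNA per cell cannot be told apart in these bulk libraries.

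All 9 genes lie on chromosome 3 of the mouse. In the order of the RefSeq annotation S100a1 and S100a13 come first, followed by S100a3, S100a4 and S100a6, then S100a8 and S100a9 side by side, and at a distance S100a11 and S100a10. Of the 9 genes, 8 had entries in the RefSeq promoter table, 11 entries in all, and S100a10 was not among them. S100a8, S100a9, S100a6 and S100a4 had the largest changes of the 9 genes with EPZ5676 against DMSO. The 250 bases before their annotated starts are given below from GRCm38.p6, which is not the mm9 build of the counts. They are written 5′ to 3′ on the strand of the gene. Capitals mark matches, on either strand, to the C/EBP motif TTNNGNAA, the PU.1 motif GAGGAA and the TATA box TATAAA.
S100a8, chr3:90668821-90669070, plus strand: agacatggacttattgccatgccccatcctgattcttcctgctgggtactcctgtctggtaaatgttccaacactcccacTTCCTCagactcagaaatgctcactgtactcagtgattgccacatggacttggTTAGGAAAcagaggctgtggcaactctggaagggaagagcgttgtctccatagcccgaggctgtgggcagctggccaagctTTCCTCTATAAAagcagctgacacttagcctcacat
S100a9, chr3:90695722-90695971, minus strand: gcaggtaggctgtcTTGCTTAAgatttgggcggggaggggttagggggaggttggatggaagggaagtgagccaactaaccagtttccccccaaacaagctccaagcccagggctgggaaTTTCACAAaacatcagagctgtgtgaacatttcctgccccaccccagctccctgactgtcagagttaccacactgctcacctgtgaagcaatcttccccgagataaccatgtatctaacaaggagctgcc
S100a6, chr3:90612644-90612893, plus strand: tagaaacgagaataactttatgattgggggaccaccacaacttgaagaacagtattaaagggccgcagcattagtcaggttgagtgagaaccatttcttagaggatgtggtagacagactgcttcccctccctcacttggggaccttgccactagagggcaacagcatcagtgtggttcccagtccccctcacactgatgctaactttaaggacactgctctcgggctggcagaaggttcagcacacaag
S100a4, chr3:90603520-90603769, plus strand: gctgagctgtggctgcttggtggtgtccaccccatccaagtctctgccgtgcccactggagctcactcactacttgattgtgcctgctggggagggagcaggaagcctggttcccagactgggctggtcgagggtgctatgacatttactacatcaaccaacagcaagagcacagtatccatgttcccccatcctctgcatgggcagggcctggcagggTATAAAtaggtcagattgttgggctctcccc
The S100a8 stretch held 1 C/EBP match, 2 PU.1 matches and a TATA box, which directly followed the PU.1 match nearest to the start and is written as 1 run with it. The S100a9 stretch held 2 C/EBP matches and neither of the other motifs. The S100a4 stretch held a TATA box alone, and none of the motifs was found in that of S100a6. Such matches are common. Among 32851 promoters of the same length 36.8% held the C/EBP motif, 23.3% the PU.1 motif and 12.4% the TATA box. The AP-1 motif TGANTCA was found in 6.75% and the STAT motif TTCNNNGAA in 7.02% of them, and neither was in the 4 stretches. S100a11 had 2 AP-1 matches and 1 PU.1 match. S100a1 and S100a13 are read away from each other from starts 105 bases apart, and neither stretch held any of the 5 motifs.

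The DMSO libraries were less alike than the replicates of the other conditions, and this touches every comparison with DMSO. Of the genes tested, 19.3% were over 2-fold apart between the 2 DMSO libraries, against 3.42% to 6.07% within the other groups. DMSO replicate 2 had 3630 reads on Y-linked genes where the other 9 libraries had 0 to 2, and Xist was at 4.76 CPM there against 928 CPM or more elsewhere. These reads have the pattern of male cells in DMSO replicate 2 and of female cells in the other 9 libraries. What this difference did to the S100a genes was not tested. S100a8 was 5.87-fold, S100a9 7.75-fold and S100a6 22.6-fold higher in DMSO replicate 1 than in replicate 2, whereas S100a11 was 1.15-fold and S100a13 1.09-fold apart. The members' values against 1 DMSO library at a time therefore stand beside those against both, and the plot of the DMSO choice shows them for all 9 genes.

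S100a8 and S100a9 were the most counted genes of all in the cells with EPZ5676 and in those with MI-2-2. S100a9 ranked 1 and S100a8 ranked 2 among all genes in each of these 4 libraries. Together they took 2.98% and 3.92% of all reads with EPZ5676, and 2.58% and 2.54% with MI-2-2. In DMSO they took 0.304% and 0.0433%, with MM-401 0.364% and 0.484%, and with iBET 0.104% and 0.0417%. The libraries of EPZ5676 and MI-2-2 were thus all above the other 6, and the 2 lowest values were those of DMSO replicate 2 and iBET replicate 2.

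S100a8 was at 1465 and 250 CPM in DMSO, after scaling by the trimmed mean of M values (TMM), which is used for all levels here. It was at 1886 and 2703 CPM with MM-401, 12776 and 18600 CPM with EPZ5676, 11871 and 12556 CPM with MI-2-2, and 520 and 249 CPM with iBET. S100a9 followed the same order of groups, with 1345 and 174 CPM in DMSO, 1603 and 2007 CPM with MM-401, 17944 and 24789 CPM with EPZ5676, 14752 and 14731 CPM with MI-2-2, and 487 and 157 CPM with iBET. For both alarmins the EPZ5676 and MI-2-2 libraries lay far above the rest, MM-401 lay above both DMSO libraries, and iBET overlapped DMSO. Across the 10 libraries the log2 CPM of S100a8 and S100a9 had a Pearson's r of 0.998, and S100a9 was the gene most like S100a8 of all those tested. The libraries of a group share their treatment, so that these are not 10 independent points, and the r is a description.

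**Figure D1:**
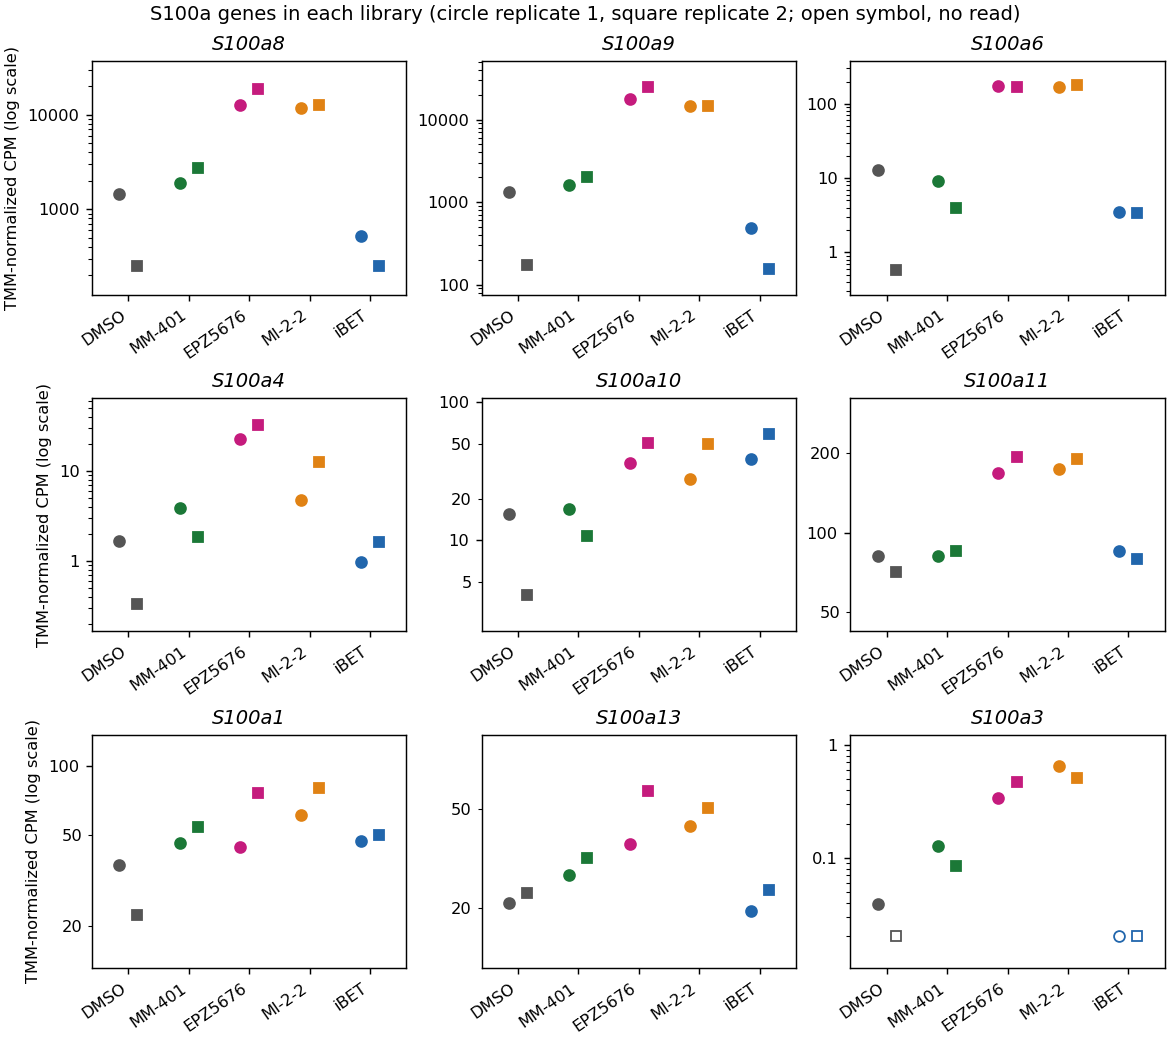
Levels of the 9 S100a genes in each library as TMM-normalized CPM on a log axis, with the 5 conditions on the x axis, replicate 1 as circles, replicate 2 as squares and libraries without a read as open symbols at the bottom. S100a8 and S100a9 reach 11871 CPM or more with EPZ5676 and MI-2-2, while S100a10 is also high with iBET, at 38.8 and 58.6 CPM.

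The balance between both alarmins also differed between conditions. The ratio of S100a9 reads to S100a8 reads was 1.40 and 1.33 with EPZ5676 and 1.24 and 1.17 with MI-2-2. It was 0.918 and 0.695 in DMSO, 0.850 and 0.742 with MM-401, and 0.937 and 0.630 with iBET. S100a9 thus outnumbered S100a8 in the 4 libraries in which both were high and was the less counted gene in the other 6. The ratio is given without a test.

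**Figure D2:**
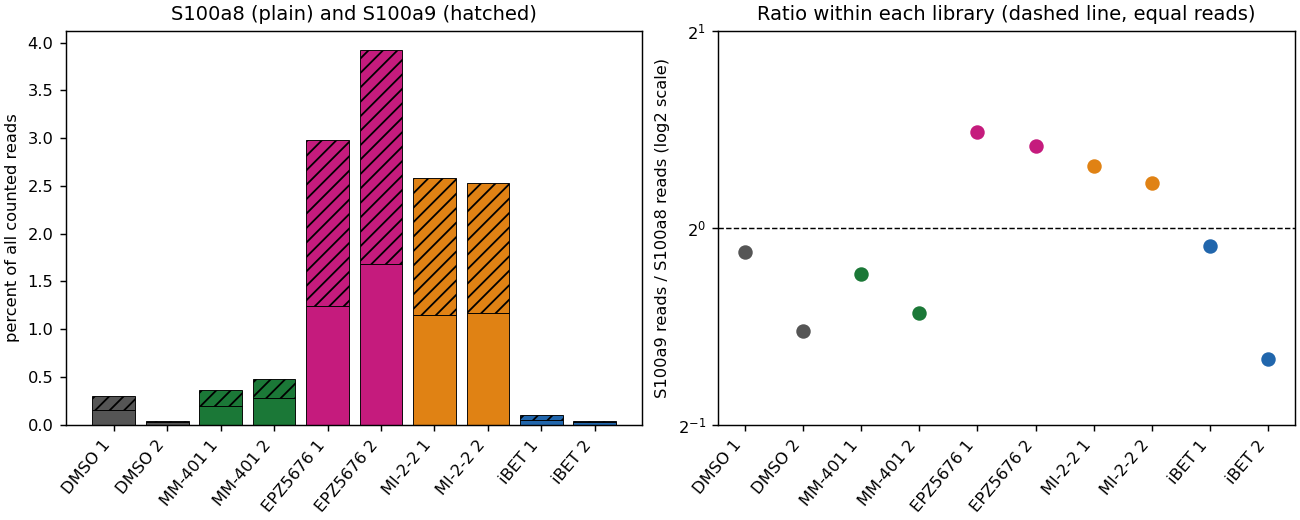
Left, the percent of all counted reads that fell on S100a8 (plain) and S100a9 (hatched) in each of the 10 libraries. Right, S100a9 reads divided by S100a8 reads in the same libraries on a log2 axis, not corrected for exon length. The 4 libraries of EPZ5676 and MI-2-2 lie between 1.17 and 1.40 and the other 6 lie between 0.630 and 0.937.

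Per length, the alarmins were the highest members in every condition. For levels between genes CPM was divided by the exon length in kilobases from the GRCm38 annotation. On that scale the mean of S100a8 was 22605 for EPZ5676 and 17598 for MI-2-2, against 3306 for MM-401, 1235 in DMSO and 554 for iBET. In the same order of conditions the mean of S100a9 was 40932, 28240, 3457, 1454 and 617. S100a11 came next in each condition, at 353, 356, 163, 150 and 161 on this scale. The lower of the 2 alarmins was 8.25 times as high as S100a11 in DMSO, 20.2 times with MM-401, 64.0 times with EPZ5676, 49.5 times with MI-2-2 and 3.43 times with iBET. Of all reads on the 9 genes, the alarmins took between 98.0% and 98.7% in the libraries of EPZ5676 and MI-2-2, and 65.1% in iBET replicate 2, where S100a11 took 12.8%.

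Against DMSO, EPZ5676 raised each of the 8 S100a genes other than S100a3 in edgeR's quasi-likelihood test, which passed 18.7% of all tested genes as higher at an adjusted p below 0.05. S100a9 rose by 4.81 ± 0.97 (log2 fold change ± SE, n = 2 libraries a group here and below, adjusted p = 0.00693) and S100a8 by 4.19 ± 0.80 (adjusted p = 0.00573). Rises of this size were not limited to the alarmins, since S100a4 rose by 4.74 ± 0.81 (adjusted p = 0.00357) and S100a6 by 4.63 ± 0.98 (adjusted p = 0.00857). S100a10 rose by 2.15 ± 0.59, S100a11 by 1.24 ± 0.12, S100a13 by 1.11 ± 0.24 and S100a1 by 1.02 ± 0.31. Over the 6 that are not alarmins the median log2 fold change was 1.70, with a range from 1.02 to 4.74, beside a median of -0.06 over all genes tested.

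MI-2-2 raised the same 8 genes, where the test passed 20.2% of all genes as higher. S100a9 rose by 4.28 ± 0.94 (adjusted p = 0.00901) and S100a8 by 3.83 ± 0.79 (adjusted p = 0.00691). S100a6 rose by 4.65 ± 0.98 and S100a4 by 3.08 ± 0.76, the latter with 4.72 and 12.7 CPM against 1.67 and 0.335 CPM in DMSO. The median over the 6 that are not alarmins was 1.62, with a range from 1.08 to 4.65.

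The comparisons with DMSO depend on its replicate 2 and on the second library of the inhibitor. Against DMSO replicate 1 alone the rises of S100a8 and S100a9 with EPZ5676 were 3.44 and 4.01, and against DMSO replicate 2 alone they were 5.98 and 6.95, all past the threshold. For MI-2-2 these values were 3.09 and 3.49 against the first DMSO library and 5.62 and 6.41 against the second. The rise of S100a6 went from 3.74 to 8.21 with EPZ5676 and from 3.77 to 8.23 with MI-2-2 when DMSO replicate 2 stood in place of replicate 1. That of S100a4 went from 4.06 to 6.34 and from 2.41 to 4.68. That of S100a10 went from 1.52 to 3.43 and from 1.36 to 3.27. DMSO replicate 2 had 12 reads of S100a6 and 7 of S100a4, so the values of these genes against it rest on few reads. S100a1 with EPZ5676 was the only one of the 8 genes to lose its call against a single DMSO library, at 0.72 (adjusted p = 0.102) against replicate 1. Without EPZ5676 replicate 2 the members called fell to 5 of 8, and those no longer called were S100a1, S100a10 and S100a13. Without MI-2-2 replicate 2 they fell to 4 of 8, and S100a1, S100a4, S100a10 and S100a13 were no longer called. With the 4 libraries of a comparison fitted alone 2 members passed for each inhibitor. They were S100a4 and S100a11 for EPZ5676, and S100a11 and S100a13 for MI-2-2. The adjusted p of S100a8 and S100a9 in edgeR was then 0.0529 with EPZ5676. The share of all genes that passed in these runs is not given. Whether the loss of calls was particular to the members therefore cannot be told.

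**Figure D3:**
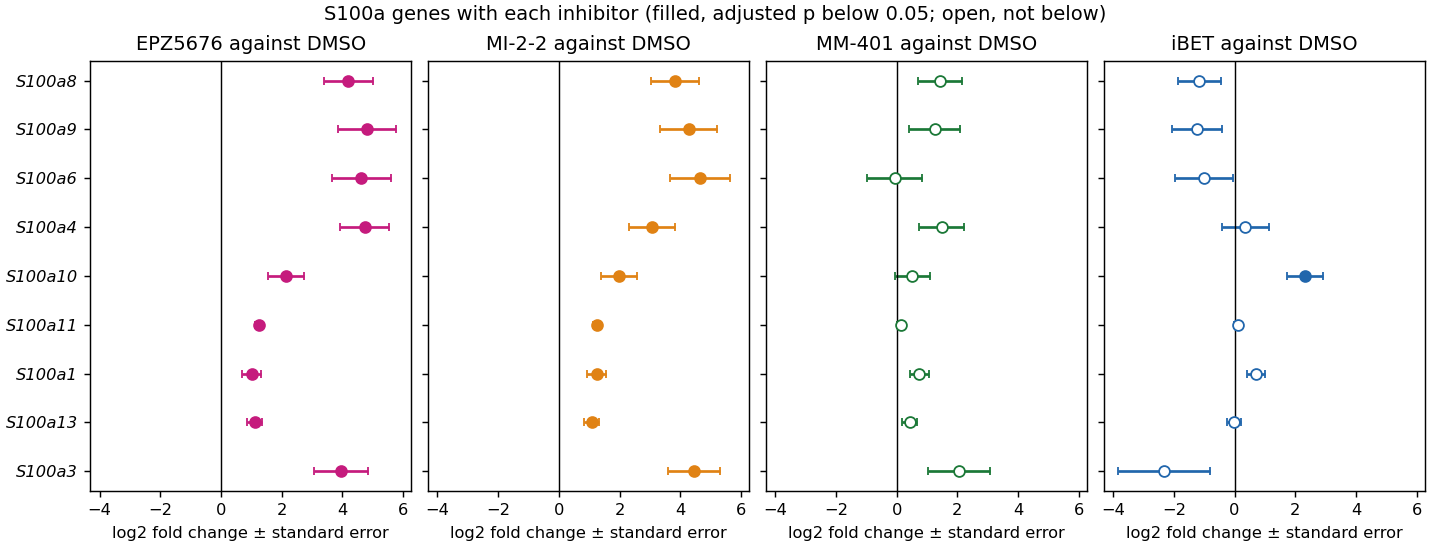
Log2 fold change against DMSO (x axis, bars are ± 1 standard error) of the 9 S100a genes (y axis) for each of the 4 inhibitors, filled where the adjusted p was below 0.05. For EPZ5676 and MI-2-2 all are filled, S100a3 with 1 read in DMSO among them, S100a10 is the only one filled for iBET, and none is filled for MM-401.

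Among the other members, S100a6 was high with EPZ5676 and MI-2-2 and low in all other libraries. It was at 175 and 167 CPM with EPZ5676 and at 170 and 177 CPM with MI-2-2. It was at 13.002 and 0.575 CPM in DMSO, 9.21 and 3.95 CPM with MM-401, and 3.53 and 3.37 CPM with iBET. The 4 high and the 6 low libraries did not overlap, and the replicates were 1.05-fold apart with EPZ5676 and 1.04-fold with MI-2-2, against 22.6-fold in DMSO. Against the cells with iBET, whose libraries differed 1.05-fold, S100a6 was higher by 5.63 ± 1.04 with EPZ5676 and by 5.65 ± 1.04 with MI-2-2.

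S100a4, the partner of myosin, was the member that differed most between EPZ5676 and MI-2-2. It was at 22.7 and 32.4 CPM with EPZ5676 and at 4.72 and 12.7 CPM with MI-2-2, against 3.89 and 1.85 CPM with MM-401 and 0.972 and 1.64 CPM with iBET. The EPZ5676 libraries lay above those of MI-2-2. Its log2 fold change of EPZ5676 over MI-2-2 was 1.66 ± 0.69, with an unadjusted p of 0.0419 and an adjusted p of 0.661 in edgeR. Reads of S100a4 and S100a3 may be shared with the overlapping gene model Gm42674 of the GRCm38 annotation, which is not in the count table.

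S100a11, which binds annexin A1, differed at most 1.15-fold between the replicates of any condition. It was at 81.9 and 71.1 CPM in DMSO, 81.8 and 85.2 CPM with MM-401, and 85.2 and 79.5 CPM with iBET. With EPZ5676 it was at 168 and 193 CPM and with MI-2-2 at 174 and 190 CPM. The 4 libraries of EPZ5676 and MI-2-2 overlapped each other and lay above all other libraries. Its rise was 2.36-fold with EPZ5676 (95% interval 1.93 to 2.87) and 2.38-fold with MI-2-2 (1.95 to 2.90). The rise passed the threshold in every alternative run for these 2 comparisons, and it was the only member of which this held for both.

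S100a13, which takes part in the export of growth factors that lack a signal peptide, and S100a1, best known from muscle, rose least with EPZ5676. S100a13 was at 20.9 and 22.9 CPM in DMSO and at 19.4 and 23.7 CPM with iBET. It was at 27.0 and 31.7 CPM with MM-401, 36.1 and 58.6 CPM with EPZ5676 and 42.5 and 50.3 CPM with MI-2-2. S100a1 was at 37.1 and 22.4 CPM in DMSO and between 44.3 and 80.5 CPM in all 8 inhibitor libraries. The DMSO libraries were thus the lowest for S100a1, whereas for S100a13 they lay beside those of iBET.

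S100a3, a cysteine-rich member known from hair, was near the floor. It had 1 and 0 reads in DMSO, 3 and 2 with MM-401, 7 and 10 with EPZ5676, 15 and 14 with MI-2-2 and 0 and 0 with iBET. From these reads the ratio to DMSO was 18.9 with EPZ5676 (95% interval 2.96 to 790) and 26.8 with MI-2-2 (4.44 to 1093), where intervals cover counting error only. Set against a floor of 3 reads over the group, S100a3 was at least 6.60-fold higher with EPZ5676 and at least 9.34-fold higher with MI-2-2 than with iBET. With DESeq2 its adjusted p against DMSO was 0.0566 for EPZ5676. It also passed edgeR's threshold for EPZ5676 and MI-2-2 against DMSO and against iBET, and for MI-2-2 against MM-401.

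S100a10 had a profile of its own. It was at 15.4 and 4.03 CPM in DMSO, 16.9 and 10.8 CPM with MM-401, 36.3 and 50.6 CPM with EPZ5676, 27.7 and 49.5 CPM with MI-2-2 and 38.8 and 58.6 CPM with iBET. The iBET libraries were thus as high as those of EPZ5676 and MI-2-2, and all 6 lay above DMSO and MM-401. S100a10 was the only member called with iBET, where the test passed 6.38% of all genes as higher, with a rise of 2.32 ± 0.60 (adjusted p = 0.0407). It passed against either DMSO library alone, by 1.66 and 3.60, but not when any 1 of the other 8 libraries was left out (adjusted p between 0.0564 and 0.184). Its log2 difference of EPZ5676 from iBET was -0.17 (95% interval -1.46 to 1.13) and that of MI-2-2 from iBET -0.34 (-1.63 to 0.96).

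The alarmins were lower with iBET than the mean of DMSO, but not past the threshold. The log2 fold change was -1.16 ± 0.71 for S100a8 (adjusted p = 0.297) and -1.24 ± 0.84 for S100a9 (adjusted p = 0.340). Against DMSO replicate 1 alone they were lower by -1.93 and -2.06 and passed (adjusted p = 0.0195 and 0.0339), and against DMSO replicate 2 alone the values turned to 0.63 and 0.90 and did not. S100a6 passed both times in opposite directions, at -1.91 against DMSO replicate 1 and 2.58 against replicate 2. The direction of these 3 genes with iBET thus turned with the DMSO library used.

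With MM-401 none of the 9 genes passed in edgeR, and 0 of the 12971 genes did (0.0%). At an unadjusted p below 0.05 there was 1 member, S100a1, and 1450 genes, and DESeq2 called 0 members and 277 genes. S100a8 stood at 1.42 (95% interval -0.23 to 3.07), S100a9 at 1.25 (-0.68 to 3.18) and S100a4 at 1.48 (-0.26 to 3.22) above DMSO on the log2 scale. S100a6 stood at -0.07 (-2.17 to 2.03). Against DMSO replicate 2 alone S100a8, S100a9 and S100a6 passed at 3.20, 3.38 and 3.51, and against DMSO replicate 1 alone the first 2 were at 0.63 and 0.41 and no member passed.

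**Figure D4:**
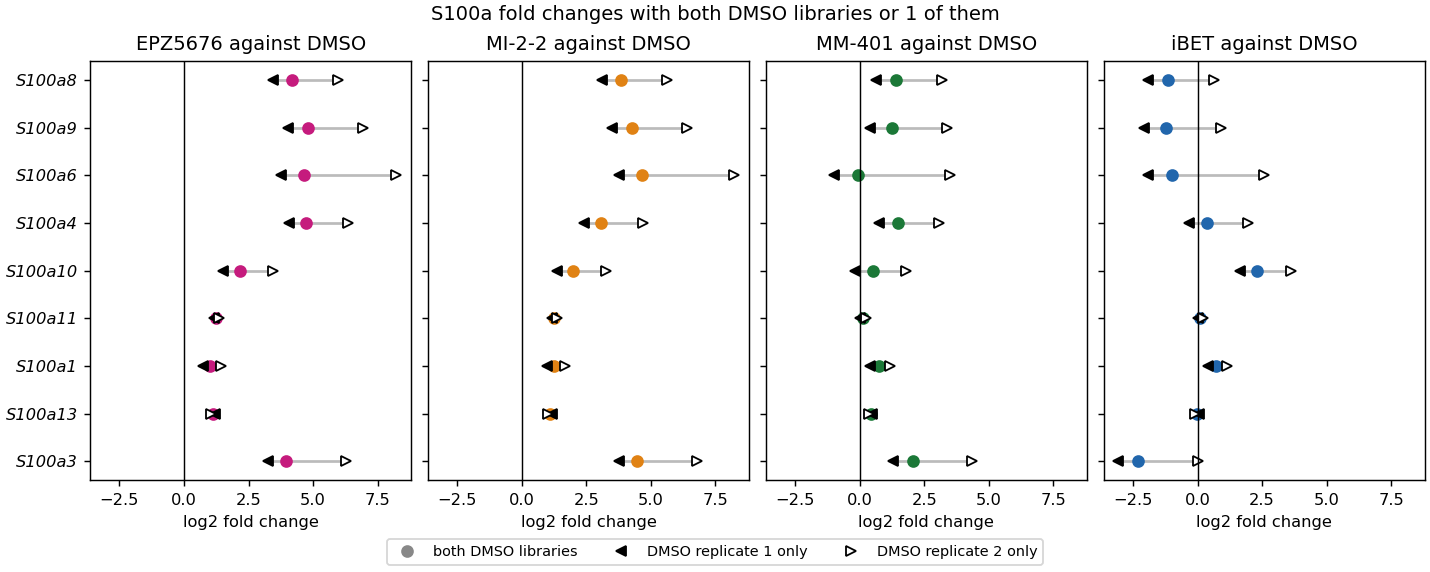
Log2 fold change (x axis) of the 9 S100a genes (y axis) for each inhibitor with both DMSO libraries (colored circles), with DMSO replicate 1 only (filled triangles) and with DMSO replicate 2 only (open triangles). For S100a8, S100a9 and S100a6 the iBET values lie on both sides of 0, from -1.93 to 0.63 for S100a8, while all S100a values for EPZ5676 and MI-2-2 stay above 0.

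The inhibitors were also set against each other, which leaves the DMSO libraries out of the difference itself. Against MM-401 EPZ5676 gave 5 members that were higher (S100a4, S100a6, S100a8, S100a9 and S100a11), where 16.7% of all genes passed as higher. MI-2-2 gave 4 (S100a6, S100a8, S100a9 and S100a11), where 18.0% passed. S100a8 was 2.77 ± 0.75 higher with EPZ5676 (adjusted p = 0.0251) and 2.41 ± 0.74 higher with MI-2-2 (adjusted p = 0.0367), and S100a9 was 3.57 ± 0.91 and 3.03 ± 0.89 higher. Without either MM-401 library only S100a11 was still called, and without either DMSO library, which then leaves the estimate of the spread, 7 of 8 members were called for each.

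Against iBET both EPZ5676 and MI-2-2 gave 6 higher members of 8, where 19.1% and 19.7% of all genes passed. The 2 members not called were S100a1 and S100a10. S100a9 was 6.05 ± 1.02 higher with EPZ5676 and 5.52 ± 1.00 higher with MI-2-2, and S100a8 was 5.35 ± 0.85 and 4.99 ± 0.83 higher. These were the largest differences of the alarmins in the 10 pairwise comparisons.

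EPZ5676 and MI-2-2 did not differ in any member past the threshold, where 0.0154% of all genes passed. At an unadjusted p below 0.05 there was 1 member, S100a4, beside 937 of all 12971 genes. DESeq2 called 0 members and 156 genes. The interval of the log2 difference ran from -1.26 to 1.98 for S100a8, from -1.37 to 2.44 for S100a9 and from -0.29 to 0.27 for S100a11, so that differences of several fold in the alarmins are within the error.

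MM-401 and iBET gave 0 members past the threshold in edgeR, where 11.4% of all genes passed in either direction. At an unadjusted p below 0.05 there were 3 members of 8, beside 3567 of all 12971 genes. DESeq2 called 3 members, beside 2335 of all genes. S100a8 was 2.58 ± 0.74 higher with MM-401 (adjusted p = 0.0636), S100a9 was 2.49 ± 0.87 higher (adjusted p = 0.108) and S100a10 stood at -1.81 ± 0.58 (adjusted p = 0.0863). Without either DMSO library, or with the 4 libraries alone, these 3 passed, with an adjusted p of 0.0123 or less.

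For the order of conditions, S100a8 and S100a9 ran from EPZ5676 through MI-2-2, MM-401 and DMSO down to iBET. Of the neighbours in that order MI-2-2 and MM-401 differed past the threshold, while EPZ5676 and MI-2-2, MM-401 and DMSO, and DMSO and iBET did not.

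Of 10 further S100 genes listed, 8 were in the table and 1, S100a7a, passed the filter. S100a7a, the mouse relative of psoriasin, had 0 reads in DMSO and in iBET, 1 read with MM-401, and 53 and 117 reads over the group with EPZ5676 and MI-2-2. Like S100a3, it passed the filter only through the groups in which it was high. By its reads it was at least 19.6-fold higher with EPZ5676 and at least 36.0-fold higher with MI-2-2 than in DMSO. The other 7 stayed at or below 0.477 CPM in every library.

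Among the genes that encode binding partners of S100 dimers, most were higher as well. Of 12 such genes 9 were higher and 1 lower with EPZ5676, where 18.7% and 19.4% of all genes were. With MI-2-2 they were also 9 and 1, where 20.2% and 21.2% of all genes were. Their median log2 fold changes were 1.497 and 1.37, against -0.06 and -0.05 over all genes. Against DMSO replicate 1 alone 7 were higher and 0 lower with EPZ5676 and 7 and 1 with MI-2-2, and against replicate 2 alone 10 and 1, and 11 and 1. Anxa1, which encodes the partner of S100A11, rose from 21.2 and 17.5 CPM to 648 and 1245 CPM with EPZ5676 and to 601 and 989 CPM with MI-2-2, a rise of 5.61 ± 0.42 and 5.36 ± 0.42. Myh9 rose by 1.68 ± 0.15 and 1.62 ± 0.15, and Ahnak, a scaffold of the S100A10 and annexin A2 complex, by 3.24 ± 0.39 and 2.86 ± 0.38. Cacybp, which encodes the partner of S100A6, fell by 1.28 and 1.65 on the log2 scale from 141 and 344 CPM in DMSO, and against DMSO replicate 1 alone it stood at -0.47 with EPZ5676 (adjusted p = 0.110). Anxa2 stood at 1.31 (adjusted p = 0.140) and 1.10 (adjusted p = 0.198) and was 512 and 94.5 CPM in the 2 DMSO libraries. Of all genes 6.38% were higher with iBET. With iBET 4 partners were higher, namely Anxa1, Anxa5, Anxa6 and Ahnak, of which Anxa5 did not pass against DMSO replicate 1 alone (adjusted p = 0.0905).

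Of 10 genes for receptors or binding sites of S100A8 and S100A9 on the cell surface, 5 were higher with EPZ5676 and 7 with MI-2-2, and none was lower, beside 18.7% and 20.2% higher among all genes. Against DMSO replicate 1 alone 4 and 6 were higher and 1 was lower with each, namely Bsg, and against replicate 2 alone 4 and 6 were higher and none was lower. Tlr4 stood at -0.01 ± 0.25 (adjusted p = 0.977) and 0.18 ± 0.25 (adjusted p = 0.596). Its co-receptor Cd14 rose by 1.55 ± 0.23 and 2.52 ± 0.24 and fell by 1.19 with iBET. Ager rose by 1.52 ± 0.29 and 1.76 ± 0.29 but stayed low, at 8.10 to 11.4 CPM in these 4 libraries and 2.40 to 3.82 CPM in the other 6. Cd36 and Mcam are among the genes counted as higher with each inhibitor. They had at most 0.0389 CPM in DMSO and, like S100a3, passed the filter only through groups in which they were high. Their calls therefore add little to these counts.

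Among 10 myeloid transcription factors, 6 were higher and 1 lower with each of EPZ5676 and MI-2-2, where 18.7% and 20.2% of all genes were higher and 19.4% and 21.2% lower. Against DMSO replicate 1 alone 6 were higher and 1 lower with EPZ5676 and 7 and 0 with MI-2-2, and against replicate 2 alone 6 and 2 with each. The genes for C/EBP factors, whose motif was searched in the promoters above, did not move together. Cebpe, which acts late in granulocytes, rose by 1.85 ± 0.25 and 1.52 ± 0.25, Cebpb by 0.95 ± 0.23 and 1.13 ± 0.23, and Cebpd by 1.27 ± 0.14 and 1.07 ± 0.14, whereas Cebpa stood at -0.32 ± 0.21 with EPZ5676 (adjusted p = 0.260) and fell by 0.70 with MI-2-2, a call that was lost against DMSO replicate 1 alone (-0.53, adjusted p = 0.134). Spi1, which encodes PU.1, rose by 1.03 ± 0.18 and 0.89 ± 0.18. With iBET Cebpe fell by 2.08, from 107 and 108 CPM to 31.3 and 19.5 CPM, and was the only factor of the list that fell.

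The late genes of neutrophils rose with the same inhibitors. Of all genes 18.7% and 20.2% passed as higher than in DMSO with EPZ5676 and MI-2-2. Against MM-401 these shares were 16.7% and 18.0%, and against iBET 19.1% and 19.7%. All 11 late neutrophil genes tested were higher with EPZ5676 (median 5.36) and with MI-2-2 (median 5.19), also without either DMSO library and against MM-401 and iBET. Ltf, which encodes lactoferrin, rose from 25.2 and 8.91 CPM to 3193 and 4828 CPM with EPZ5676 and to 4052 and 5091 CPM with MI-2-2. Camp, which encodes cathelicidin, was at 52.7 and 39.3 CPM in DMSO, 2465 and 3495 CPM with EPZ5676, 1366 and 1354 CPM with MI-2-2 and 2.96 and 3.10 CPM with iBET. With iBET 4 of the 11 were lower and none higher, beside 7.54% lower among all genes, with both DMSO libraries, and 3 and 8 were lower against DMSO replicate 2 and replicate 1 alone. With MM-401 none passed against DMSO, but 8 of 11 were higher than with iBET, where 773 of all 12971 genes were.

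Of 9 genes of progenitors and leukemia 6 were lower and none higher with each of EPZ5676 and MI-2-2, where 19.4% and 21.2% of all genes were lower. With DMSO replicate 1 as the sole control 5 were lower and 1, Kit, was higher with each, and against replicate 2 alone 8 were lower and none higher. Among those lower throughout was Meis1, a cofactor of HOX proteins, which fell from 36.4 and 89.9 CPM to between 0.650 and 1.79 CPM. Of 9 genes of monocytes and macrophages 5 were higher with EPZ5676 and 6 with MI-2-2, beside 18.7% and 20.2% among all genes. With replicate 1 of DMSO alone 6 and 7 were higher, and against replicate 2 alone 4 and 6 were higher and 0 and 1 lower. Markers of other cells were low, and Pax5, Ebf1, Cd3e, Cd8a and Fcer1a had no read in any library. The summed level of 5 markers each of B cells and of mast cells and basophils, and of 4 of eosinophils, reached at most 15.99 CPM. That of 5 T and NK cell markers was 65.8 CPM in DMSO replicate 2 and at most 4.85 CPM elsewhere. In DMSO replicate 2 Nkg7 alone made 65.7 CPM of this sum, with Cd4 at 0.0479 CPM and no read of Cd3e, Cd3g or Cd8a. Of the 5 stromal markers, Col1a2, Col3a1 and Dcn had no read in any library and Pdgfra was at most 0.117 CPM. Col1a1 brought their sum from at most 0.756 CPM in DMSO, MM-401 and iBET to between 3.03 and 19.0 CPM with EPZ5676 and MI-2-2. The part of Col1a1 in the results was not tested.

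The genes most like S100a10 were not those most like the alarmins. After S100a9, those closest to S100a8 were Arhgap27, Serpinb10, Mmp25 and Pglyrp1 (Pearson's r of log2 CPM from 0.992 to 0.995 over 10 libraries). For S100a9 they were S100a8, S1pr4, 5830428M24Rik, Lcn2 and Tinagl1 (0.993 to 0.998), and for S100a10 they were Anapc11, Tec, Ptgfrn, Pkdcc and B2m (0.962 to 0.971). Between the members, r with S100a8 was 0.959 for S100a3, 0.938 for S100a6, 0.912 for S100a11, 0.895 for S100a4, 0.886 for S100a13, 0.698 for S100a1 and 0.402 for S100a10.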

How the data were processed

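RNA-seq of total RNA from 10 libraries (Illumina TruSeq) was used as deposited by the authors, in 1 table of raw read counts for 24015 gene symbols, not normalized. The submitters' processing notes name TopHat2, Subread, DESeq and build mm9. The order of use, the gene annotation, and how strand and shared reads were handled are stated by no source used here. Libraries were grouped by their labels, 0 columns were left out, and the 9 genes were matched by symbol. The members and all 13 gene lists were chosen with earlier results of these data known. The result of 1 list is not reported here.

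Counts were filtered (filterByExpr, minimum count 10), scaled by TMM and fitted in R 4.3.3 with edgeR 4.0.16 (glmQLFit, glmQLFTest), with 1 coefficient for each condition over all 10 libraries. All 10 pairs of conditions were tested, each with Benjamini-Hochberg adjustment over 12971 genes and a threshold of 0.05. SE is the log2 fold change divided by the square root of F, and intervals are 95%. The fit was also run on simulated counts, with the same small spread for every gene and changes only in well-counted genes. The DMSO libraries here were further apart than that, so the run does not show how the fit does with them. Where a group had 0 reads, 3 reads over the group served as a floor, and with 1 to 3 reads an exact binomial interval was used, which covers counting error only. P-values measure the spread between libraries, and whether duplicates came from separate transductions is not stated. By their Y-linked and Xist reads the DMSO duplicates were not from the same cells. Genes named were the members, every listed gene and the 5 genes most like S100a8, S100a9 and S100a10. Alternatives were total-count scaling, DESeq2 size factors, the DESeq2 1.42.0 Wald test, no filter, a filter at 5 CPM in 2 libraries, a replicate block, the 2 groups alone, and leaving out each library. The list counts without each DMSO library and against MM-401 and iBET, and the member counts without S100a3, were added after the data were seen. For runs with a library left out or with the 2 groups alone, the share of all genes that passed is not given. Exon lengths came from a GRCm38 annotation and promoters from RefSeq (GRCm38.p6), and no protein sequence was used here.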

Additional observations from a re-analysis of the deposited data

How the results depend on the processing

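Of 724 values of called results recomputed over 17 alternatives 642 kept direction and call and 82 kept the direction but not the call, and of 790 values that were not called 712 stayed so, 49 passed and 29 changed direction. Most lost calls came with 1 library less or with the 2 groups fitted alone, and the reason was not tested. Counts of members here include S100a3, which passed the filter only through the groups where it was high. They stand without the share of all genes that passed in the same run. Members called with the 2 groups alone were 2 for EPZ5676 and 2 for MI-2-2 against DMSO, 0 for iBET against DMSO and 3 for MM-401 against iBET. For MM-401 against iBET DESeq2 gave 3 and no filter 1. Leaving out each library gave 0 to 3 members for MM-401 against DMSO, 5 to 9 for EPZ5676 and 5 to 9 for MI-2-2 against DMSO, 0 to 4 for iBET against DMSO, 0 to 3 for MM-401 against iBET, 1 to 8 for EPZ5676 and 1 to 8 for MI-2-2 against MM-401. S100a3 was not tested with the filter at 5 CPM. Total-count scaling moved the median of all genes to -0.23 for EPZ5676 and -0.20 for MI-2-2 relative to DMSO, and no member changed direction with it.

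Leaving out each library changed the direction of these log2 fold changes, given as lowest and highest. Against DMSO, MM-401 had -0.999 to 3.51 for S100a6 and -0.17 to 1.79 for S100a10, and iBET had -1.91 to 2.58 for S100a6, -1.93 to 0.63 for S100a8, -2.27 to 0.90 for S100a9, -0.35 to 1.96 for S100a4 and -0.17 to 0.12 for S100a13. MM-401 against iBET had -0.0856 to 0.15 for S100a1 and -0.0311 to 0.0668 for S100a11. EPZ5676 against MI-2-2 had -0.68 to 0.10 for S100a1, -0.12 to 0.0853 for S100a11, -0.36 to 0.34 for S100a13, -0.0540 to 0.0119 for S100a6 and -0.19 to 0.65 for S100a10. EPZ5676 against iBET had -0.44 to 0.16 for S100a10 and -0.14 to 0.64 for S100a1, EPZ5676 against MM-401 -0.17 to 0.61 for S100a1, and MI-2-2 against iBET -0.82 to 0.0218 for S100a10. The cause was not tested.

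The replicate numbers are shared by all groups, and the differences of replicate 1 from replicate 2 correlated between groups at 0.278 to 0.666 across genes, but with 2 numbers this does not establish a pairing. With a replicate block, 1 member, S100a8, was called for MM-401 against iBET, the value of S100a6 for MM-401 against DMSO turned from -0.071 to 0.0704, and 6 members were called for each of EPZ5676 and MI-2-2 against MM-401. S100a3 had at most 15 reads in any library, which limits its values.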
